A study of Mus musculus with 14 samples.

Results

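Major histocompatibility complex (MHC) class II molecules are the subject here, as seen in the transcriptomes of T cells sorted from the spleens of leukemic mice. Its 8 genes were taken by symbol, H2-Aa, H2-Ab1, H2-Eb1, Cd74, Ciita, H2-DMa, H2-DMb1 and H2-Oa, and all of them were found among the 24091 listed genes and among the 12248 that had enough reads to be tested. Chronic-phase (CP) CML was represented by 8 Mir142+/+BCR-ABL mice, and blast-crisis-like (BC) CML by 6 Mir142−/−BCR-ABL mice, which lack Mir142 in every cell. All 14 mice carried BCR-ABL under a tetracycline-off SCL transgene, which acts in stem and progenitor cells, had BCR-ABL switched on for 3 weeks by withdrawal of tetracycline, and were, by the study's methods, CD45.2 C57BL/6j animals of both sexes, 6 to 10 weeks old. About 200000 T cells were sorted per mouse, and each mouse gave a library of its own. No group without BCR-ABL was sequenced in these libraries, so each comparison is of BC CML with CP CML. The mouse names carry a different prefix in each group, the meaning of which the labels do not give, so whatever it marks and the genotype cannot be told apart.

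Class II molecules present peptides from endocytosed proteins to CD4+ T cells. H2-Aa and H2-Ab1 encode the α and β chains of I-A, H2-Eb1 encodes the β chain of I-E, and Cd74 encodes the invariant chain that fills the groove until the endosome is reached. There H2-DM, made of H2-DMa and an H2-DMb chain, exchanges the remnant of the invariant chain for peptide, and H2-DO, made of H2-Oa and H2-Ob, restrains H2-DM. Ciita is the coactivator that switches the family on, and it works through RFX and NF-Y bound to paired X and Y boxes in the promoters. B cells, dendritic cells and activated macrophages are the main producers, and mouse T cells are generally regarded as making little or none. The C57BL/6 strain has a defective I-E α gene, so no I-E reaches the cell surface in spite of H2-Eb1 mRNA, and the listed pseudogene H2-Ea-ps had 0 reads in all 14 mice.

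In GENCODE vM21, which is on the genome build of the counts (mm10, GRCm38), 6 of the genes lay within 224335 bases of chromosome 17. H2-Oa ran from 34092340 to 34095234, H2-DMa from 34119541 to 34139101, H2-DMb1 from 34153072 to 34160230, H2-Ab1 from 34257689 to 34269419 and H2-Eb1 from 34305867 to 34316674 on the plus strand, and H2-Aa from 34282744 to 34287823 on the minus strand. Ciita lay apart, on chromosome 16 (plus strand, 10480059 to 10528418). RefSeq promoter sequences of GRCm38.p6, 300 bases long with 250 before and 50 after the start of the gene, were at hand for 5 of the 8. They were searched for an X box core, GNAAC, followed by a Y box core, GATTGG, with 25 to 36 bases from the start of one to the start of the other, letters that were settled on after the sequences had been seen. Both cores were found, on the strand of the gene, in H2-Aa, H2-Eb1, H2-DMb1 and H2-Oa, and not in H2-DMa. The H2-DMa entries, 34122582 to 34122881 and 34125268 to 34125567, both lie inside the gene as GENCODE draws it. The sequence at its GENCODE start was not searched. The pair of H2-DMb1 lies before the RefSeq start but inside the gene as GENCODE draws it, with all 50 bases of its stretch (34153085 to 34153134). Of 32851 promoters of this length, 0.712% held such a pair on either strand and 0.365% on the strand of the gene, whereas 16.1% held the Y box core alone on either strand. Those of H2-Aa, H2-Eb1 and H2-Oa are shown with that of H2-Ob, since they share the pair while their log2 fold changes between the groups, given below, run from 1.83 to -1.04, with the X and Y cores in capitals:
H2-Aa, chr17:34287867-34287916, minus strand: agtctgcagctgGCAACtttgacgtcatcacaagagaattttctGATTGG
H2-Eb1, chr17:34305764-34305812, plus strand: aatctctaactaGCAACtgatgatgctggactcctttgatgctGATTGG
H2-Oa, chr17:34092291-34092340, plus strand: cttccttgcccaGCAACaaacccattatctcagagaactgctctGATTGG
H2-Ob, chr17:34238806-34238852, plus strand: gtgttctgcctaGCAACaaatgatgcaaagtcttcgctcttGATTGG
The X core began 32, 31, 32 and 29 bases before the Y core in these sequences, in that order. A match is a description of the letters, not evidence that a factor was bound.

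The libraries held between 15703702 and 19914531 counted reads. Values are given as CPM, counts scaled to the same library total after TMM normalization (counts per 1000000 reads). Mir142 was at 27.4 CPM on average in CP CML and had 0 reads in all 6 BC CML libraries, at least 167-fold lower against a floor of 3 reads per library. Cd3e, a defining T cell gene, stood at 404 ± 25.6 CPM (SD, n = 8) in CP CML and at 410 ± 18.1 CPM (n = 6) in BC CML. Not all T cell genes were as even. Cd8a, Thy1 and Cd3g had log2 fold changes of 0.87, 0.67 and 0.59 in BC CML over CP CML, and Cd4 had one of -0.73, each without overlap between the groups. Marker lists of other cells, though not each of their genes, had reads in every library and are set beside the class II genes below. A bulk library cannot tell more cells of a type from more RNA per cell.

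Transcripts of the I-A and I-E chains, the invariant chain, Ciita and H2-DMb1 were 3.05- to 4.41-fold higher in BC CML than in CP CML, H2-DMa was slightly higher, and H2-Oa was at similar averages in both. With edgeR's quasi-likelihood test and Benjamini-Hochberg adjustment over all tested genes at 0.05, 7 of the 8 rose and 0 fell. This count is read against a transcriptome in which 65.2% of all tested genes passed, 32.6% as higher and 32.7% as lower in BC CML. The median log2 fold change was 1.82 for the 8 genes and -0.01 for all tested genes. In none of the 8 did the groups separate completely, whereas 36.9% of all tested genes had no overlap between the groups. The mice of one group spread widely, with a coefficient of variation of 42.8% to 58.0% for the 6 genes with the largest changes. For genes of at least 2 on the average log2 CPM scale, the 95th percentile of that coefficient was 22.3% in CP CML and 26.2% in BC CML.

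**Figure D1:**
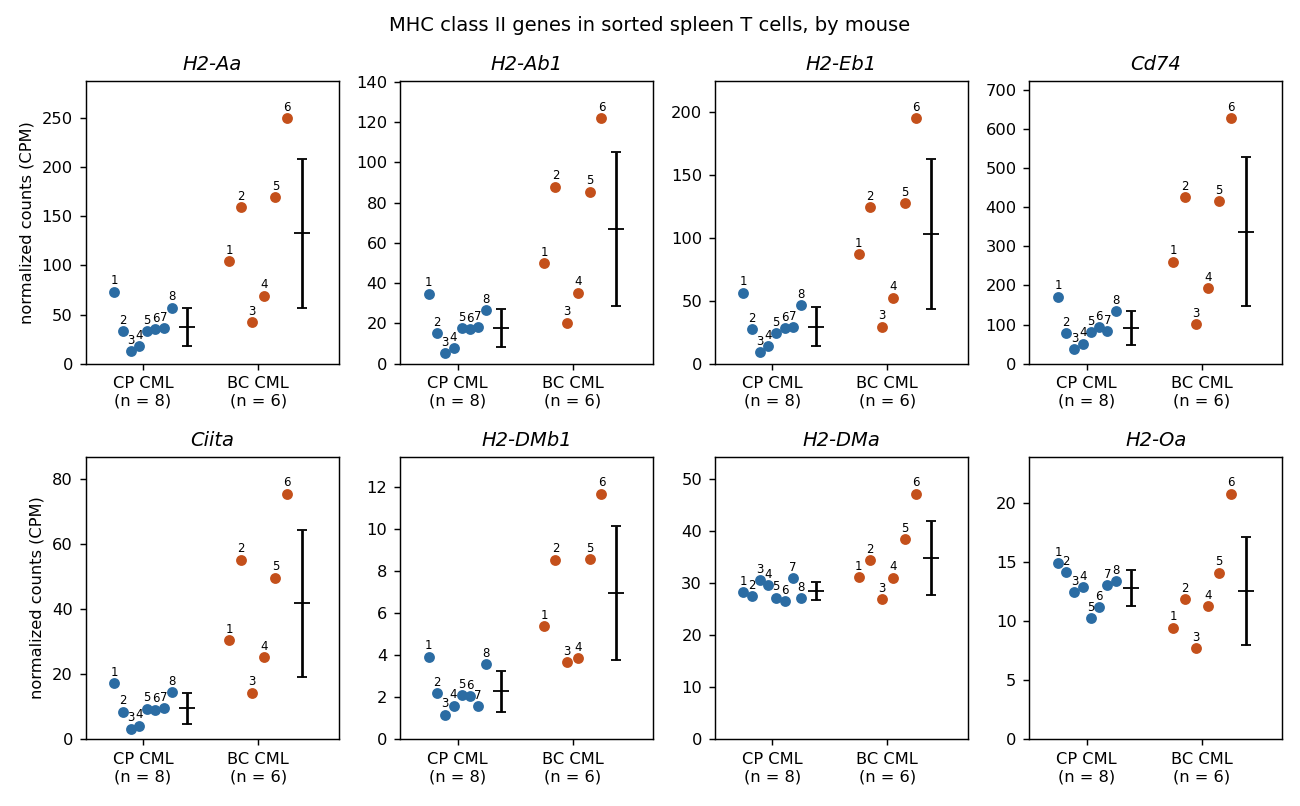
CPM of the 8 class II genes (vertical axes from 0, different in each panel) in each CP CML mouse (blue, n = 8) and BC CML mouse (orange, n = 6), numbered by replicate, with the mean and SD of each group in black. Mouse 1 is the highest CP CML mouse and mouse 6 the highest BC CML mouse in the first 6 panels, and H2-DMa spans only 26.5 to 30.95 CPM in CP CML.

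H2-Aa was between 12.7 and 73.3 CPM in the CP CML mice, with a median of 34.2. In the BC CML mice it was between 42.5 and 249.9 CPM, with a median of 131.8. Thus 4 of 6 BC CML mice lay above the highest CP CML mouse, and BC CML mice 3 and 4 lay within the CP CML range. The log2 fold change was 1.83 (SE 0.44, adjusted p = 0.00262 by the quasi-likelihood test). H2-Ab1, its partner chain, ranged from 5.36 to 34.9 CPM (median 17.5) in CP CML and from 20.5 to 122.1 CPM (median 67.6) in BC CML. Only BC CML mouse 3 overlapped with the CP CML mice, and the log2 fold change was 1.91 (SE 0.45, adjusted p = 0.00226). H2-Eb1 ranged from 9.29 to 56.4 CPM (median 28.1) in CP CML and from 29.5 to 195.3 CPM (median 105.8) in BC CML, so that it changed by 1.80 on the log2 scale (SE 0.45, adjusted p = 0.00342), with BC CML mice 3 and 4 again within the CP CML range. The interval listed for H2-Eb1 with the counts, 34264832 to 34316674, runs across H2-Aa and part of H2-Ab1, and how reads in the shared stretch were assigned is not known.

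The 3 chain genes kept nearly fixed proportions in every mouse. Per kilobase of the listed transcript length, the level of H2-Aa was 1.67 to 2.09 times that of H2-Ab1 in CP CML and 1.6 to 1.85 times in BC CML. Its level per kilobase relative to H2-Eb1 was 1.59 to 1.82 in CP CML and 1.60 to 1.92 in BC CML. These ranges overlapped between the groups, although the levels themselves differed several-fold between mice.

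Cd74, the invariant chain gene, was the most abundant of the 8 and lies on chromosome 18 (plus strand, 60803848 to 60812652). It was between 36.9 and 171.6 CPM in CP CML, with a median of 82.2, and between 100.6 and 628.3 CPM in BC CML, with a median of 338.4. Again 5 of 6 BC CML mice exceeded every CP CML mouse, with mouse 3 inside the CP CML range. The log2 fold change was 1.89 (SE 0.42, adjusted p = 0.00146). Per kilobase, Cd74 was 2.18 to 2.82 times the level of H2-Aa in CP CML and 2.27 to 2.67 times in BC CML.

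Ciita, the coactivator, showed the largest fold change of the 8. It ranged from 3.32 to 17.4 CPM (median 9.31) in CP CML and from 14.4 to 75.6 CPM (median 40.2) in BC CML, and only BC CML mouse 3 lay within the CP CML range. The log2 fold change was 2.14 (SE 0.41, adjusted p = 0.00045). Relative to it, the target H2-Aa was at 20.9 to 25.1 times the level per kilobase in CP CML and at 16.2 to 20.3 times in BC CML, so these ranges did not overlap. This ratio was described and not tested.

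The subunits of H2-DM had fold changes of unlike size, a difference that was not tested. H2-DMb1 was scarce, at 1.17 to 3.93 CPM (median 2.08) in CP CML and 3.67 to 11.7 CPM (median 6.96) in BC CML. This change was 1.61 on the log2 scale (SE 0.30, adjusted p = 0.00021), and 4 of 6 BC CML mice exceeded every CP CML mouse. H2-DMb1 and H2-DMb2 are near-identical copies that are listed with the same interval, so the split of reads between them is uncertain. H2-DMb2 was at 4.85 ± 2.03 CPM in CP CML and 14.7 ± 8.18 CPM in BC CML, a change of 1.61 on the log2 scale (SE 0.35, adjusted p = 0.00106). H2-DMa, by contrast, was between 26.5 and 30.95 CPM (median 27.9) in CP CML, the narrowest range of the 8 relative to its level, and between 27.0 and 47.3 CPM (median 32.8) in BC CML. It rose by 0.29 on the log2 scale (SE 0.10, adjusted p = 0.0127), with 5 of 6 BC CML mice above the highest CP CML mouse. Without BC CML mouse 6 its log2 fold change was 0.19 (adjusted p = 0.0345). Per kilobase, H2-DMa was 5.82 to 21.0 times as abundant as H2-DMb1 in CP CML, and 3.25 to 6.48 times in BC CML. This ratio leaves out H2-DMb2, which averaged 4.12 CPM per kilobase in CP CML and 12.5 in BC CML, above H2-DMb1 at 1.71 and 5.22. It therefore does not give the balance of the 2 kinds of subunit.

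The subunits of H2-DO were not higher in BC CML by this test. H2-Oa was between 10.25 and 14.95 CPM (median 13.0) in CP CML and between 7.71 and 20.8 CPM (median 11.6) in BC CML. One BC CML mouse, number 6, lay above the CP CML mice and 2 lay below them. The log2 fold change was -0.03 (SE 0.17, adjusted p = 0.897), which does not show that the levels were equal. It was -0.233 without BC CML mouse 6 and 0.0805 without BC CML mouse 3. H2-Ob, the other subunit, was at 56.3 ± 7.36 CPM (SD, n = 8) in CP CML and 27.4 ± 16.5 CPM (n = 6) in BC CML, with 5 of 6 BC CML mice below the lowest CP CML mouse. It fell by 1.04 on the log2 scale (SE 0.29, adjusted p = 0.00634). The level of H2-Oa per kilobase relative to H2-Ob was 0.455 to 0.604 in CP CML and 0.832 to 1.51 in BC CML, without overlap. Thus all 3 of the tested relatives changed, H2-Eb2 and H2-DMb2 upward and H2-Ob downward, beside 65.2% of all tested genes, H2-Eb2 with a log2 fold change of 1.64 (SE 0.35, adjusted p = 0.0008).

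**Figure D2:**
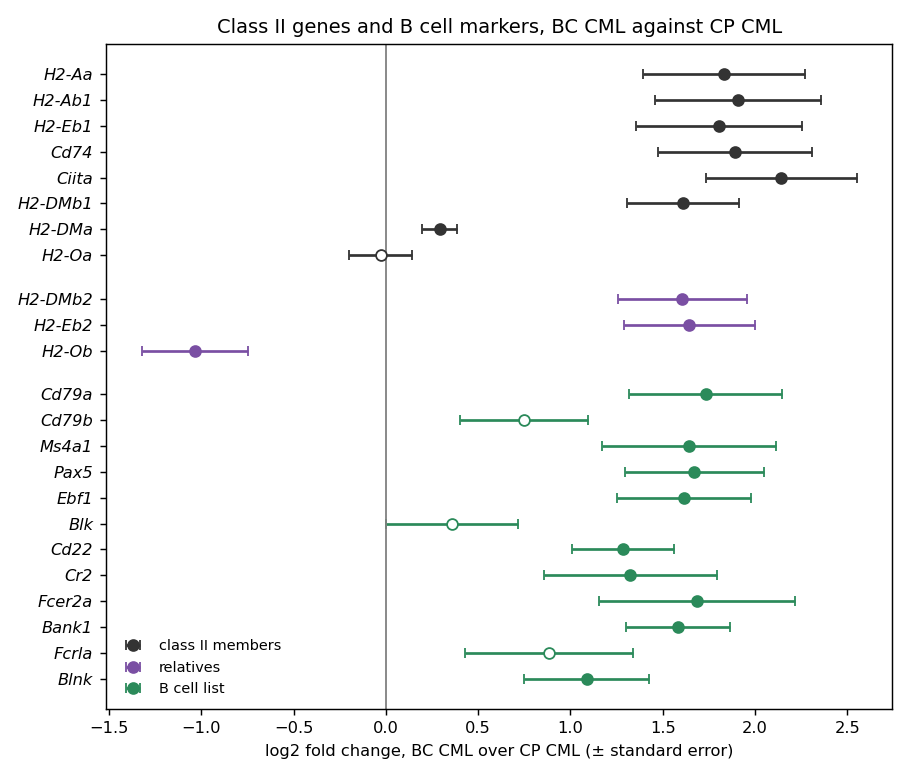
Log2 fold change of BC CML over CP CML with its standard error for the 8 class II genes (black), 3 relatives (purple) and 12 of the 13 B cell markers, 1 not being reported here (green), with filled points for an adjusted p-value below 0.05 in the quasi-likelihood test. Most class II genes lie between 1.61 and 2.14, H2-DMa and H2-Oa lie near 0, and H2-Ob lies at -1.04.

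The order of the 8 by level per kilobase also differed between the groups. In CP CML it ran from Cd74 (64.8 ± 30.8 CPM per kilobase) through H2-Aa (27.6 ± 14.6), H2-DMa (17.3 ± 1.02), H2-Eb1 (16.4 ± 8.61), H2-Ab1 (15.0 ± 7.94) and H2-Oa (10.1 ± 1.19) to H2-DMb1 (1.71 ± 0.73) and Ciita (1.19 ± 0.58). H2-DMa, H2-Eb1 and H2-Ab1 were within their spread of each other. In BC CML, Cd74 (240.1 ± 135.6 CPM per kilobase) and H2-Aa (98.1 ± 56.1) still led, followed by H2-Eb1 (56.9 ± 33.0) and H2-Ab1 (56.0 ± 32.0), which were within their spread. H2-DMa (21.1 ± 4.33) and H2-Oa (9.88 ± 3.62) came after them, and Ciita (5.22 ± 2.81) and H2-DMb1 (5.22 ± 2.38) were last and alike.

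To see whether the genes moved together from mouse to mouse, log2 CPM values were correlated within each group, so that the difference between the groups could not enter. In CP CML, H2-Aa, H2-Ab1, H2-Eb1, Cd74, Ciita and H2-DMb1 varied together, with mouse 1 highest, mouse 8 next and mouse 3 lowest for each of the 6. Their 15 pairwise Pearson r values lay between 0.889 and 0.998 (median 0.989), and all 15 passed an exact two-sided permutation test after adjustment over the 120 correlations computed. Spearman's rho passed in 10 of the 15. Without the 2 mice farthest from the median the r values lay between 0.780 and 0.995. In BC CML mouse 6 was highest and mice 1, 4 and 3 were lowest, in that order, for the same 6 genes. The r values lay between 0.956 and 0.998 (median 0.994), and 15 of 15 passed by Pearson's r and by Spearman's rho. H2-Aa and Ciita, which lie on different chromosomes, may stand for the rest. In CP CML they had r = 0.995 (adjusted exact permutation p = 0.00186) and rho = 0.976 (adjusted exact p = 0.00433), and r = 0.993 without the 2 mice farthest from the median. In BC CML they had r = 0.991 (adjusted exact permutation p = 0.00833, n = 6) and rho = 0.943 (adjusted exact p = 0.0339).

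H2-DMa and H2-Oa had lower values of r with these genes in CP CML. H2-DMa had r between -0.610 and -0.513 with the 6 genes, and 0 of 6 passed the test. H2-Oa had r between 0.243 and 0.392, also with 0 of 6 passing. In BC CML H2-DMa had r between 0.913 and 0.930 with the same genes, and 6 of 6 passed. H2-Oa had r between 0.857 and 0.893 there, with 6 of 6 passing by Pearson's r and 3 of 6 by Spearman's rho. For H2-Aa with H2-DMa, r was -0.513 in CP CML (adjusted exact permutation p = 0.267) with rho = -0.286 (adjusted exact p = 0.578), and 0.930 in BC CML (adjusted exact permutation p = 0.0106) with rho = 1.00 (adjusted exact p = 0.0104). Without the 2 mice farthest from the median, 4 BC CML mice gave r = 0.849 for this pair. The levels show the same contrast, since H2-DMa varied little in CP CML, with a coefficient of variation of 5.94%, and by 20.5% in BC CML. The difference in r between the groups was not tested.

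**Figure D3:**
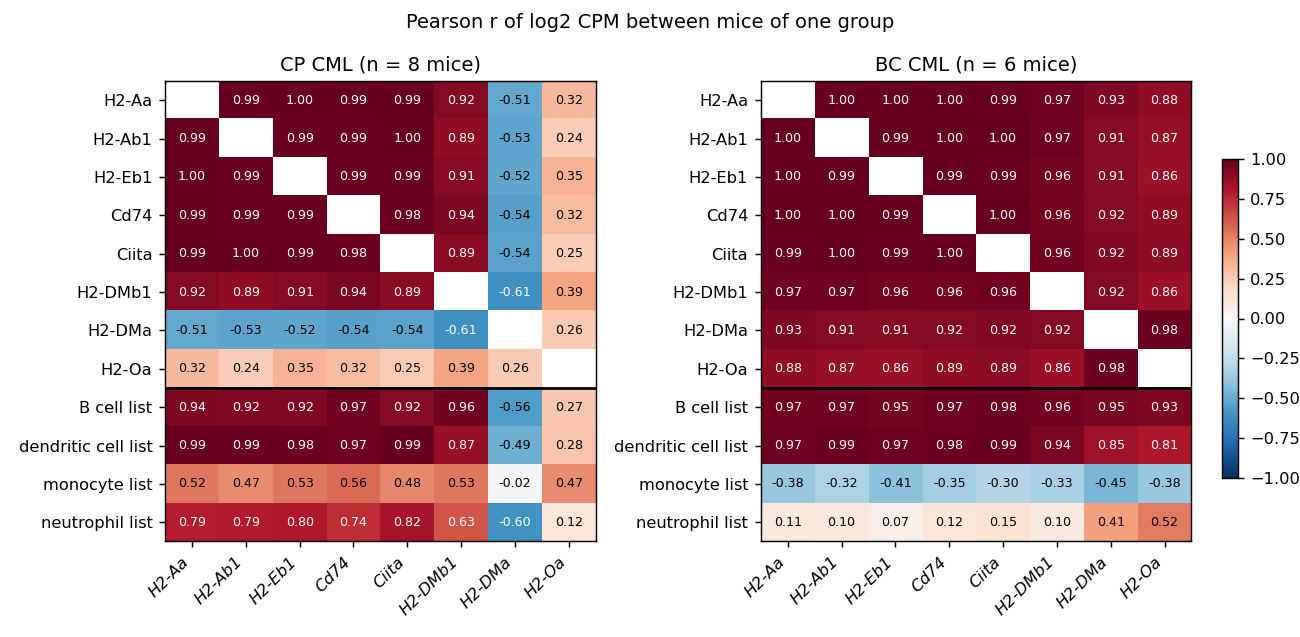
Pearson r of log2 CPM across the mice of one group, CP CML on the left (n = 8) and BC CML on the right (n = 6), between the 8 class II genes (above the line) and with the mean log2 CPM of 4 marker lists (below it). In both groups 6 genes are tied to each other and to the B cell and dendritic cell lists. With those 6 genes H2-DMa and H2-Oa have r of -0.610 to 0.392 on the left and of at least 0.857 on the right.

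Since sorted T cells should hold few antigen-presenting cells, genes that mark such cells were read in the same libraries. B cell markers were found in every mouse, and 10 of 13 were higher in BC CML and 0 lower, beside 32.6% and 32.7% of all tested genes, with a median log2 fold change of 1.32. Cd79a, a signaling chain of the B cell receptor, was at 10.8 ± 5.10 CPM in CP CML and 35.9 ± 23.3 CPM in BC CML, which was 1.73 on the log2 scale (SE 0.41, adjusted p = 0.00239). Ms4a1, which encodes CD20, changed by 1.64 (SE 0.47, adjusted p = 0.00788). The 13 genes summed to 78.5 to 237.9 CPM in CP CML and to 141.2 to 702.2 CPM in BC CML, overlapping as the class II genes did. Neither of these markers was at 0 in any library, Cd79a having at least 95 reads and Ms4a1 at least 104.

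The mean log2 CPM of the B cell list followed the class II genes from mouse to mouse. With the 6 genes r was between 0.918 and 0.966 in CP CML and between 0.954 and 0.983 in BC CML, and 6 of 6 passed in each group. By Spearman's rho 5 of 6 passed in CP CML and 6 of 6 in BC CML. For H2-Aa, r was 0.936 in CP CML (adjusted exact permutation p = 0.00705) with rho = 0.929 (adjusted exact p = 0.0104), and 0.967 in BC CML (adjusted exact permutation p = 0.0126) with rho = 0.943 (adjusted exact p = 0.0339). H2-DMa and H2-Oa had r = -0.561 and r = 0.273 with the B cell list in CP CML, and r = 0.951 and r = 0.931 in BC CML.

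The list of conventional dendritic cells, of which 8 genes were tested, had 4 higher and 0 lower in BC CML, beside 32.6% and 32.7% of all tested genes. With the 6 class II genes r was between 0.868 and 0.994 in CP CML and between 0.944 and 0.988 in BC CML, and 6 of 6 passed in each, with 5 of 6 passing by Spearman's rho in CP CML and 6 of 6 in BC CML. With the log2 of the summed CPM of the list, chosen after the data were seen, the BC CML values lay between 0.767 and 0.878. Of these 2 of 6 passed by Pearson's r and 0 of 6 by Spearman's rho. Flt3, the receptor that supports dendritic cell development, was at 1.73 ± 1.21 CPM in CP CML and 4.76 ± 3.57 CPM in BC CML (log2 fold change 1.46, SE 0.55, adjusted p = 0.0293). Itgax, which encodes CD11c and is not limited to dendritic cells, changed most, from 9.45 ± 2.52 CPM to 62.9 ± 26.2 CPM, without overlap (log2 fold change 2.74, SE 0.26, adjusted p = 4.83e-07). The list summed to 39.3 to 68.3 CPM in CP CML and 80.7 to 181.4 CPM in BC CML. Xcr1 and Batf3, which mark the cross-presenting subset, were too low to be tested.

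Myeloid markers were also higher in BC CML, and their correlations with the class II genes passed the test in fewer cases. Of the 12 monocyte and macrophage genes 10 rose and 0 fell (median log2 fold change 1.21), beside 32.6% and 32.7% of all tested genes, and their sum was 124.8 to 208.3 CPM in CP CML and 292.0 to 540.8 CPM in BC CML. Lyz2, lysozyme M, rose by 3.01 on the log2 scale (SE 0.39, adjusted p = 1.65e-05), whereas Csf1r, the macrophage colony-stimulating factor receptor, had a log2 fold change of 0.38 (SE 0.25, adjusted p = 0.1998). With the 6 class II genes the list had r between 0.472 and 0.565 in CP CML and between -0.411 and -0.296 in BC CML, and none passed. In BC CML these values turned positive, 0.275 to 0.381, without the 2 mice farthest from the median. All 10 neutrophil genes rose (median log2 fold change 2.31), beside the same 32.6%, from a sum of 12.1 to 574.1 CPM to one of 635.7 to 1807 CPM. In CP CML r was between 0.628 and 0.822 and 4 of 6 passed, but this rested on mice 3 and 4, which had the lowest neutrophil values, without which r lay between -0.122 and 0.205. In BC CML r was between 0.067 and 0.146, and 0 of 6 passed. With the log2 of the summed neutrophil CPM, which gives more weight to abundant genes, it was between 0.559 and 0.610, and again 0 of 6 passed. The part of these cell types in the class II levels was not tested.

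**Figure D4:**
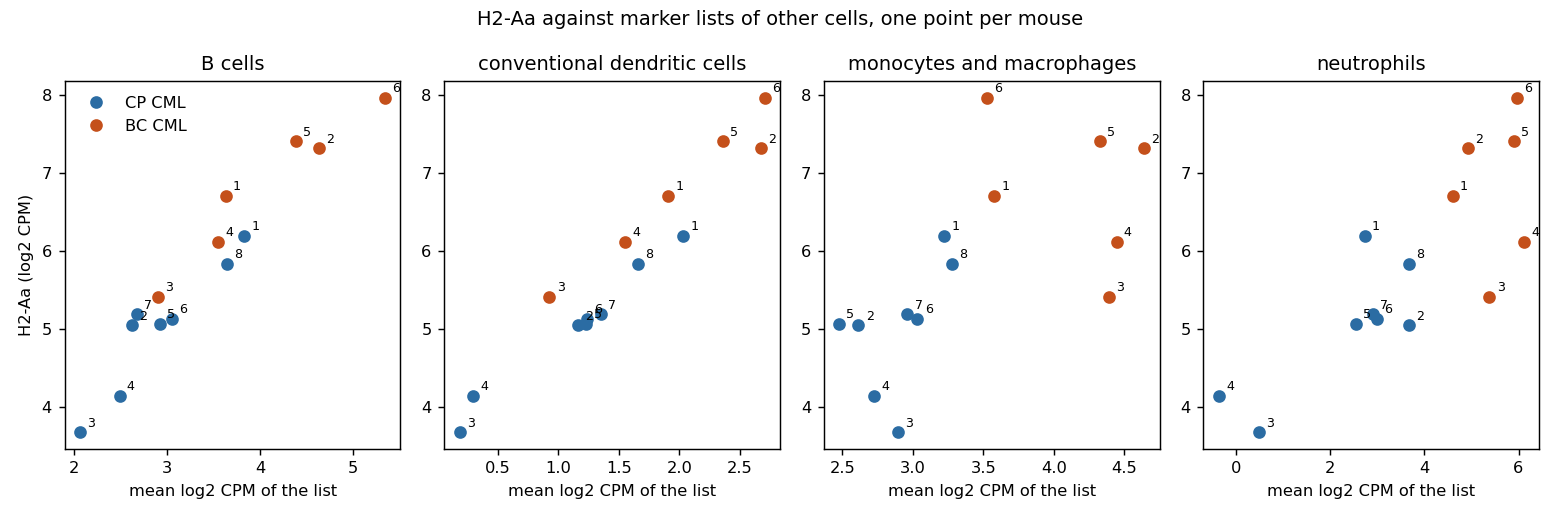
Log2 CPM of H2-Aa (vertical axis) against the mean log2 CPM of the B cell, conventional dendritic cell, monocyte and macrophage, and neutrophil marker lists (horizontal axes), with 1 point per mouse, numbered by replicate, in CP CML (blue) and BC CML (orange). H2-Aa follows the B cell list (r = 0.936 in CP CML and 0.967 in BC CML) and the dendritic cell list (0.990 and 0.974) within each group, and its ratio to the summed B cell CPM had a median of 0.260 in CP CML and 0.362 in BC CML.

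Each class II gene was also divided by the summed CPM of the B cell markers of the same mouse. H2-Aa was 0.161 to 0.323 of that sum in CP CML and 0.301 to 0.457 in BC CML, with overlap. Cd74 was 0.470 to 0.743 of it in CP CML and 0.712 to 1.14 in BC CML, again with overlap. Ciita, at 0.0423 to 0.0854 in CP CML and 0.102 to 0.134 in BC CML, was above in every BC CML mouse. H2-Oa was below in every BC CML mouse, at 0.0627 to 0.159 in CP CML and 0.0276 to 0.0546 in BC CML. H2-DMa overlapped, at 0.119 to 0.390 and 0.0673 to 0.191. Against the sums of the dendritic cell, monocyte and neutrophil lists the Ciita ratios overlapped between the groups, whereas those of H2-Oa were again below in every BC CML mouse. Those of H2-DMa were below against the dendritic cell and monocyte sums and overlapped against the neutrophil sum. These ratios depend on the choice of markers and are given without a test.

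Other marker lists are given beside the 32.6% of all tested genes that were higher and the 32.7% that were lower. Plasma cell genes were tested in 4 cases, of which 1 rose and 2 fell, and Jchain, the joining chain of secreted antibodies, was at 26.05 ± 20.5 CPM in CP CML and 2.81 ± 0.89 CPM in BC CML (log2 fold change -3.22, SE 0.56, adjusted p = 0.00022). Of the genes listed for plasmacytoid dendritic cells 4 of 5 rose and 1 fell, but not all of them mark that cell type alone. Ccr9, Pacsin1 and Runx2 averaged 82.0, 68.9 and 32.8 CPM in CP CML, and the study lists Ccr9 among its markers of naive CD8 T cells. Siglech, the most specific of the list, averaged 0.06 CPM in CP CML and was too low to be tested. It had 0 to 5 reads in CP CML and 8 to 27 reads in BC CML, without overlap, and Cox6a2 had 0 to 3 and 10 to 39 reads. Of 7 genes of natural killer and innate lymphoid cells 6 passed as higher, or 5 of 6 without Klra8, which varies between mouse strains. Of 4 basophil and mast cell genes 2 rose, and of 5 erythroid and megakaryocyte genes 1 rose and 1 fell. Of 11 T cell identity genes 5 rose and 2 fell, with a median log2 fold change of 0.13 and a sum of 4605 to 5385 CPM in CP CML and 5957 to 6586 CPM in BC CML.

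The genes most like the class II genes were looked for by the correlation, over 14 mice, of log2 CPM less its group mean with the average of the same residuals of H2-Aa, H2-Ab1, H2-Eb1 and Cd74. Group differences do not enter this measure, but depth and cell composition are shared by all genes of a library, and it carries no p-value. Of 11672 other genes 42 had r of at least 0.9, and the median r was -0.01. The 10 highest were Fcrla (0.978), Kynu (0.978), Kmo (0.972), Flt3 (0.972), Cd79a (0.970), Siglecg (0.968), Bcl11a (0.966), Wdfy4 (0.964), Clec10a (0.959) and Pax5 (0.959). Cd79a and Pax5 are B cell genes, the latter the factor that sets B cell identity, Siglecg encodes an inhibitory lectin of B cells, Kynu and Kmo encode enzymes of tryptophan breakdown, and Wdfy4 takes part in cross-presentation by dendritic cells. Of the 10, 7 were higher and 0 lower in BC CML, beside 32.6% and 32.7% of all tested genes, with log2 fold changes from 0.81 to 1.75. Among the class II genes outside the reference, Ciita had r = 0.994, H2-DMb1 0.940, H2-DMb2 0.950, H2-Eb2 0.842, H2-Ob 0.796, H2-Oa 0.657 and H2-DMa 0.491. H2-Ob thus had a within-group pattern like that of the class II chains while its level was lower in BC CML. Of markers of other cells, Jchain had r = 0.820, Lyz2 0.699, Itgax 0.677, S100a8, a neutrophil gene, 0.632 and Csf1r 0.003, so that several exceeded H2-Oa or H2-DMa. Cd3e had r = -0.238.

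The regulators of class II transcription were mixed, with 7 of 15 higher, 5 lower and a median log2 fold change of 0.14, beside 32.6% higher and 32.7% lower among all tested genes. Rfx5, the X box subunit of the RFX complex, was at 42.15 ± 3.00 CPM in CP CML and 78.5 ± 6.74 CPM in BC CML, without overlap (log2 fold change 0.90, SE 0.06, adjusted p = 3.45e-10). Its partner Rfxank had a log2 fold change of -0.33 (SE 0.05, adjusted p = 1.47e-05) and Rfxap of -0.01, and the latter did not pass the test. Of the NF-Y subunits, Nfyb fell by 0.12 on the log2 scale, and Nfya and Nfyc did not pass. Spi1, which encodes PU.1 of myeloid and B cells, changed by 1.87 (SE 0.28, adjusted p = 2.63e-05), and Irf8, which serves dendritic and B cells, by 1.20 (SE 0.13, adjusted p = 9.20e-07). Prdm1, a repressor of Ciita in plasma cells, fell by 0.88 on the log2 scale (SE 0.11, adjusted p = 1.99e-06).

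Interferon-γ is the main inducer of Ciita outside professional antigen-presenting cells, and 3 of 8 genes of its arm rose and 1 fell (median log2 fold change 0.18), beside 32.6% higher and 32.7% lower among all tested genes. Ifng itself was at 9.06 ± 1.48 CPM in CP CML and 11.1 ± 3.35 CPM in BC CML, a log2 difference of 0.29 that did not pass (SE 0.16, adjusted p = 0.132). Irf1, a transcription factor induced by interferons, and the feedback inhibitor Socs1 rose by 0.26 and 0.65 on the log2 scale, and the receptor chain gene Ifngr2 fell by 0.18 on the log2 scale.

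Of the genes for processing antigen in endosomes, 9 of 9 were higher and 6 had no overlap between the groups, beside 32.6% and 36.9% of all tested genes, with a median log2 fold change of 0.80. The changes ran from 0.28 for Sppl2a, which clears the invariant chain remnant, to 1.58 for Ctsh, and Ctss, the cathepsin that trims the invariant chain in B cells and dendritic cells, changed by 0.53 (SE 0.07). Of 8 tested genes of class II turnover and traffic, 5 rose and 1 fell, beside 32.6% and 32.7% of all tested genes. Those that rose include the ubiquitin ligase March1, which removes class II from the surface, with a log2 fold change of 1.38 (SE 0.23, adjusted p = 9.54e-05). Of 12 tested class I genes, which T cells express broadly, 9 rose and 0 fell, beside 32.6% and 32.7% of all tested genes, and the median log2 fold change over the 12 was 0.34. Their sum was 7589 to 9040 CPM in CP CML and 9618 to 11100 CPM in BC CML, without overlap.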

How the data were processed

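RNA-seq counts of T cells from 8 CP CML and 6 BC CML spleens were used. The authors trimmed reads with Trimmomatic and FASTP, aligned them to mm10 with STAR 2.6.0, counted them with HTSeq 0.11.1 and deposited raw counts per gene with gene positions and lengths. The counting annotation and strand setting are not given in the sources used here. Counts passing filterByExpr were normalized by TMM and tested with edgeR 4.0.16 (limma 3.58.1, R 4.3.3) by the robust quasi-likelihood test with no covariate and Benjamini-Hochberg adjustment over 12248 genes at 0.05. The fit was checked on simulated counts. Log2 CPM used a prior count of 2, and a list was represented by the mean over its tested genes. Correlations were tested by exact enumeration of pairings with scipy 1.17.1, the smallest two-sided p being 2.48e-05 for r and 4.96e-05 for rho with 8 mice, and 0.00139 and 0.00278 with 6. The class II genes and all lists were chosen with earlier results of these data known. Named were the 8 genes, Mir142, genes of the pathway lists, fixed markers with the list members of highest and lowest change, and the 10 most alike genes; other names are examples, and some list genes are not reported here. March1 is the older symbol in the table, and H2-Ea, Hba-a1, Hbb-bt, Trac, Trbc1 and Trbc2 are not listed in it. Replicates are separate mice, and chi-square per degree of freedom between libraries of a group was at least 3.09, so none was treated as a repeat. The floor of 3 reads covers counting error only. The SE of a log2 fold change was derived from the F statistic of the quasi-likelihood test and, like the SD, includes variation between mice. The alternatives tried were DESeq2 1.42.0, edgeR's likelihood ratio test, normalization by RLE or by library size alone, all genes unfiltered, more than 1 CPM in at least 6 samples, a replicate block, each mouse left out in turn and, for correlations, log2 of CPM plus 1. After the data were seen, 2 were added, a fit of replicates 1 to 6 without the block and the log2 of a list's summed CPM.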

Additional observations from a re-analysis of the deposited data

Results flagged for a closer look

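Of 32 sets of values examined (the class II genes and relatives, the summed marker lists and the total reads, each in each group), 1 had a mouse standing apart by Dixon's criterion, where chance gives about 1 in 20, or 1.6. BC CML mouse 2 had the fewest counted reads of its group, 16145537, against 18319039 in the next, a gap of 0.668 of the group's range. No class II gene had such a mouse in either group.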

How the results depend on the processing

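The 7 higher genes kept their direction in all 22 other fits, and all 7 passed in each of the 14 that left out 1 mouse and in 7 of the remaining 8. H2-Oa passed in none, and its log2 fold change ran from -0.233 to 0.0805 when 1 mouse was left out. The number of genes past the threshold was 7280 to 8719 over the other fits and 7721 to 7966 with 1 mouse left out. Leaving out BC CML mouse 6 gave the smallest change for the 7 genes, 1.55 for H2-Aa, 1.52 for H2-Eb1 and 0.185 for H2-DMa. The numbers shared by the groups name different animals, whose deviations correlated between -0.273 and 0.356, so they did not pair the mice. With the replicate block on replicates 1 to 6, 6 of 8 genes passed and H2-DMa did not, at 0.279 (adjusted p = 0.0665 by the quasi-likelihood test). Without the block the same 12 mice gave 0.300 and 7 of 8, and 7637 genes against 7280.

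The median r between the 6 genes and with the B cell list moved by less than 0.1 under every alternative tried for it, in both groups. Without the 2 mice farthest from the median, the median r with those genes went in CP CML from -0.533 to -0.308 for H2-DMa, from 0.319 to 0.143 for H2-Oa and from 0.790 to -0.00272 for the neutrophil list. In BC CML, where 4 mice were left, it went from 0.877 to 0.620 for H2-Oa, from -0.336 to 0.315 for the monocyte list and from 0.108 to 0.590 for the neutrophil list. Library size alone gave -0.412 for H2-DMa in CP CML. The log2 of the summed CPM gave in BC CML 0.842 for the dendritic cell list, which was 0.980, -0.0129 for the monocyte list and 0.582 for the neutrophil list. For each of them the cause was not tested. With 6 mice no exact p below 0.00139 is possible. H2-DMb1 had as few as 23 reads in a library.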

Other observations

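Among the markers of natural killer cells, Klra8, which encodes an activating receptor, had 0 to 5 reads in the CP CML libraries and 185 to 326 reads in the BC CML libraries, a log2 fold change of 6.73 (SE 0.26, adjusted p = 6.41e-13 by edgeR's quasi-likelihood test). Klra8 is known to vary between mouse strains, and whether the groups carry the same allele was not tested, so this value may not be read as a change in expression.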
